A study of Mus musculus with 18 samples.

Results

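Ventricles of leptin treated ob/ob mice (5 arrays) were compared with ventricles of ob/ob mice that kept eating ad libitum (4 arrays), which are 9 of the 18 arrays of the study and were taken by their titles. Mice of the ob/ob strain lack functional leptin, the hormone by which fat tissue reports its stores to the brain, and they overeat and become obese. The strain background was C57Bl/6J and the ob/ob mice were 6 months old when the groups were formed. The leptin group received leptin from osmotic mini-pumps for 1 month, at a dose not given in the sources used here. The other arrays came from calorie restricted ob/ob mice given as many calories as the leptin treated mice ate (5 arrays) and from untreated C57Bl/6J wild type mice aged 6 to 8 months (4 arrays). All 14 ob/ob arrays share the leptin deficiency, and the leptin group differed from the ad libitum group both in the hormone and in the lower food intake that came with it. The comparison therefore measures leptin and reduced intake together. Mice of the study were killed between 7 and 8 AM, so every level belongs to 1 time of day. The labels do not say that each array is a separate animal, and the p-values measure the spread between these arrays.

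Leptin binds its receptor on neurons of the hypothalamus, lowers food intake and raises energy use, and the receptor signals through JAK2 and STAT3 in cells that carry it. The heart takes most of its energy from fatty acids, and in leptin deficiency it stores surplus fat as triacylglycerol. Heart muscle also holds a circadian clock, a loop in which the factors BMAL1 (gene Arntl) and CLOCK switch on the genes of their own repressors (Per, Cry and Nr1d genes), and feeding time and hormones are among the cues that set clocks outside the brain.

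Each array gave a linear MAS5 signal per probe set, in arbitrary units. The 9 arrays resembled each other closely, with pairwise correlations of log2 signals across all non-control probe sets of 0.952 to 0.967. Their median signal was 23.2 to 27.3 in the leptin group and 23.7 to 30.1 in the ad libitum group. The ratio of 3' to 5' Gapdh control signals, a measure of RNA integrity, was 0.799 to 0.868 in the leptin group and 0.798 to 0.834 in the ad libitum group. Over 6 such measures the lowest p was 0.175 (exact permutation test, two-sided, adjusted p = 0.524), where the smallest p that 5 against 4 arrays allow is 0.0159. Ventricular muscle markers summed to signals of 70481 to 95517 with leptin and 78180 to 91151 with ad libitum feeding. Atrial tissue varied between arrays. Myl7, the atrial myosin light chain, read 62.1, 264, 47.7, 7.79 and 78.7 in the 5 leptin arrays, against 438, 2.89, 4.73 and 2.52 in the 4 ad libitum arrays, so ad libitum replicate 1 and leptin replicate 2 carried the most atrial signal. In whole tissue, fewer cells of a type and less RNA per cell cannot be told apart. The array gives no check of the genotype. Lep, the leptin gene, averaged 5.34 ± 3.72 with leptin and 7.72 ± 5.91 with ad libitum feeding (SD, n = 5 and 4), close to the 5.13 added to every signal, and Lepr, the receptor gene, averaged 29.9 ± 10.8 with leptin and 30.9 ± 8.67 with ad libitum feeding. Both genes lay below the filter on low signal and were not tested.

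The genes with the largest changes included clock genes, and most called genes lay outside the gene lists described below. Of 10916 genes tested, 114 (1.04%) passed a Benjamini-Hochberg adjusted p under 0.05 in limma's fit over all 18 arrays. Of these, 69 (0.632%) were higher with leptin and 45 (0.412%) were lower, and the median log2 change of all genes was -0.004. Of the 114, 32 belonged to at least 1 of 61 gene lists of heart pathways and cell types and 82 to none. At an unadjusted p under 0.05 there were 886 genes (8.12%) higher and 773 (7.08%) lower. The 2 groups did not overlap, with every leptin array above every ad libitum array, in 350 genes (3.21%), and with every leptin array below in 297 genes (2.72%). Removing single arrays moved the count of calls. It was 56 without leptin replicate 2, 48 without ad libitum replicate 2 and 55 without ad libitum replicate 3, and it lay between 48 and 147 over all 9 arrays left out in turn. Called in every one of those 9 fits were 34 genes, 24 higher and 10 lower. The fit of the 9 arrays alone called 52 genes, 42 of them among the 114. Of the genes named below, Serpina3n, Dixdc1, Slc25a33, Ccbe1, Irs1, Mt1, Rsad2, Tef, H2-M3, Fabp5, Abcg2, Rpsa, Tek, Elovl5, Ccn1, Scube2, Kcna5, Eln, Nt5e, Igsf1 and Cdkn1a were not among those 42 (adjusted p of at most 0.145). With an atrial marker covariate 100 of the 114 were called, without Tek, Ccn1, Igsf1 and Cdkn1a (at most 0.0571). Of the genes named in the text but not called, 1 was called in that fit. With the mean of all probe sets of a gene, 24 of the 53 called genes named in the text lost the call. Among those that lost it, the log2 change shrank by over 1.5 times in Ccbe1 (to 0.15, adjusted p = 0.715), Igsf1 (-0.26, 0.589), Ahr (0.18, 0.642), Tmem150c (-0.33, 0.515), Mt1 (0.23, 0.685), Dixdc1 (0.42, 0.171), Igf1r (0.33, 0.0969), Ccn1 (-0.27, 0.364), Tubb5 (0.32, 0.0867), Epha4 (-0.56, 0.0864), Nt5e (-0.40, 0.414) and St8sia4 (0.40, 0.326). The others lost it with smaller shifts, Nr1d2 (0.58, adjusted p = 0.0668), H2-Aa (1.10, 0.0552), Kcnk1 (-0.72, 0.0746) and Acsl6 (-0.56, 0.0867) among them. Arntl and Col5a3 shrank as much but stayed called. Against the calorie restricted arrays, which share the leptin arrays with this comparison, 1951 genes (17.9%) differed, and against wild type 2 genes did (0.0183%).

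**Figure D1:**
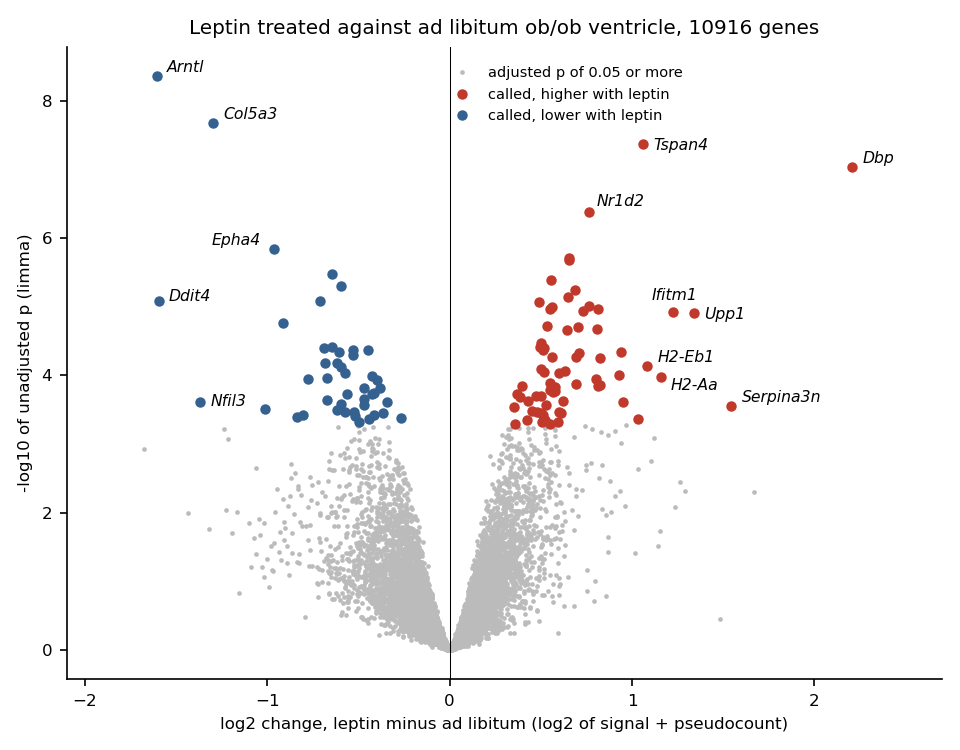
Each point is 1 of the 10916 tested genes, with the log2 change (leptin minus ad libitum, of signal plus the pseudocount) on the horizontal axis and -log10 of limma's unadjusted p on the vertical axis. Coloured points are the 69 genes called higher and the 45 called lower, and among them Dbp lies farthest right and Arntl farthest left.

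The circadian clock held the largest rise and the largest fall of any called gene. Of 4 tested genes of the activating arm, a list that also holds the repressor gene Nfil3, 2 fell, with a median log2 change of -0.79. Of 9 tested genes of the repressing arm 3 rose (median 0.30), and of 5 output genes 2 rose (median 0.51). Over all genes the called share was 0.632% higher and 0.412% lower. These lists are a few genes long, and were drawn up with earlier results of the same arrays known.

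The promoters of the clock genes carry short binding sequences through which the loop acts. As examples, the windows of Arntl and Per3 are given from 250 bases before to 50 bases after the annotated start, 5' to 3' on the gene's strand. They come from RefSeq (GRCm38.p6, with Arntl at chr7:113207261-113207560, plus strand, and Per3 at chr4:151044616-151044915, minus strand). Capitals mark, in Arntl, the RORE, read by the repressors REV-ERB and the activators ROR, and in Per3 the D-box TTATGTAA, read by DBP, TEF and HLF and by the repressor NFIL3. The RORE was searched with the letters that the marked Arntl sites share, any base allowed at the last but one. A match in Arntl was therefore fixed in advance, and other forms of the RORE were not searched. The motifs were chosen after the values had been seen and were searched on both strands.
Arntl: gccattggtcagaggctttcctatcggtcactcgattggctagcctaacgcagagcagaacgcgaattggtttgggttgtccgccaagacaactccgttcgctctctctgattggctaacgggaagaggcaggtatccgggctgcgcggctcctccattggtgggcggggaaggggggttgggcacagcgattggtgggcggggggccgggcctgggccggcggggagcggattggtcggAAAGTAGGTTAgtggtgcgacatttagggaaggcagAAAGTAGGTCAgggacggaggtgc
Per3: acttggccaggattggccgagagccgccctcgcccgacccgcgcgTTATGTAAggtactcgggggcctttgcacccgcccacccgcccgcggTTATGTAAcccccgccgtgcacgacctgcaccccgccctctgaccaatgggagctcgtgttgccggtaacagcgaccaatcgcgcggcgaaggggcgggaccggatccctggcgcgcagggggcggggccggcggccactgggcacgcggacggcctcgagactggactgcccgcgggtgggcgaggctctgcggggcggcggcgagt
The Arntl window held 2 matches to these RORE letters, which were found in 0.061% of 32851 windows of the same length. That share belongs to this narrow pattern and not to ROREs at large, so it does not set Arntl apart. A further, overlapping Arntl window held 1 match and is not shown. The Per3 window held 2 D-boxes, found in 0.938% of windows. Among called genes with a window, these RORE letters occurred in 0 of 54 that rose and in 1 of 41 that fell, which was Arntl. The D-box occurred in 1 of 54 and 0 of 41. The E-box CACGTG, read by BMAL1 with CLOCK, occurred in 8 of 54 genes that rose, 3 of 41 genes that fell and 7.15% of all windows. A gene counted if any of its windows matched, and some genes have several windows, so the gene counts and the window shares are not like measures. The windows of Dbp, Nr1d2, Nfil3, Hlf, Usp2, Nr1d1, Cry2, Clock and Npas2 held none of these letters. E-boxes also lay in windows of Per1, Cry1 and Ciart, which were not called. A match describes the letters and shows no binding.

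Arntl encodes BMAL1, the activator that pairs with CLOCK. It read 60.1, 76.2, 46.4, 50.4 and 62.8 in leptin arrays, against 202, 192, 173 and 187 in ad libitum arrays. Every leptin array lay far below every ad libitum array. The log2 change was -1.61 ± 0.15 (SE, adjusted p = 4.74e-05). A second Arntl probe set read low in both groups, averaging 44.6 with leptin and 46.1 with ad libitum feeding, and showed no such gap. With the mean of its probe sets, Arntl had a log2 change of -0.80 (adjusted p = 0.0156). Nfil3, a repressor at D-boxes, read 36.7, 43.1, 33.9, 50.8 and 61.8 with leptin, against 117, 76.7, 137 and 182 with ad libitum feeding. The groups did not overlap, and Nfil3 fell by 1.37 ± 0.30 on the log2 scale (adjusted p = 0.0317). That call was lost without leptin replicate 1, 2 or 3 or ad libitum replicate 1, 3 or 4, with an adjusted p of at most 0.101. Clock itself averaged 146 ± 10.9 with leptin and 173 ± 35.1 with ad libitum feeding and was not called (log2 change -0.22, adjusted p = 0.448). Other Clock probe sets, of lower signal, gave -0.49 (adjusted p = 0.13 in limma's fit of all probe sets) and -0.22 (0.69). Npas2, the partner of BMAL1 that can stand in for CLOCK, fell short of the filter on low signal. It read 0.90 to 22.9 in the leptin arrays and 30.2 to 57.9 in the ad libitum arrays, which did not overlap, with a log2 change of -1.52 and an adjusted p of 0.0887 in the fit without the filter.

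Dbp, the D-box activator that is a direct output of the clock, showed the largest rise of all called genes. Its signals were 524, 373, 656, 797 and 427 with leptin, against 117, 131, 115 and 88.7 with ad libitum feeding. The lowest leptin array stood well above the highest ad libitum array. The log2 change was 2.21 ± 0.25 (adjusted p = 2.51e-04), and a second probe set gave 1.90. Tef, a relative of Dbp, read 951, 781, 820, 780 and 645 with leptin, against 533, 514, 586 and 572 with ad libitum feeding, without overlap (log2 change 0.52 ± 0.10, adjusted p = 0.0194). The other outputs Usp2 (0.51, adjusted p = 0.0846) and Hlf (0.37, adjusted p = 0.193) were not called. Tef lost its call without ad libitum replicate 1 or 2 (adjusted p of at most 0.0728) and in the fit of the 9 arrays alone (0.0764), whereas Dbp and Arntl kept theirs in each of those fits.

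Among the repressors, Nr1d2, which encodes REV-ERB beta, read 1447, 1304, 1439, 1624 and 1157 with leptin, against 746, 866, 864 and 790 with ad libitum feeding. Its groups were widely apart, with a log2 change of 0.76 ± 0.10 (adjusted p = 9.19e-04). Per3 read 69.9, 62.5, 62.0, 69.5 and 63.1 with leptin, against 40.6, 40.4, 39.2 and 26.8 with ad libitum feeding. It rose by 0.77 ± 0.12 (adjusted p = 0.00576), again without overlap. Per2, a core repressor that binds the BMAL1 and CLOCK pair with the cryptochromes, rose by 0.83 ± 0.16 (adjusted p = 0.0141), with 87.4, 69.6, 102, 94.6 and 73.2 in leptin arrays and 56.2, 39.7, 51.7 and 36.5 in ad libitum arrays. Per2 was not called without ad libitum replicate 2 or 4 (adjusted p of at most 0.0572). The rest of the arm did not pass the test. Nr1d1 had a log2 change of 0.16, Per1 of -0.06, Cry1 of -0.22 and Cry2 of -0.05, with overlapping groups and adjusted p-values of 0.65 and above. Ciart, named after its values were seen, had the arm's largest log2 change, 1.67, on low and scattered signals of 37.7 to 130 with leptin and 3.35 to 37.9 with ad libitum feeding (adjusted p = 0.126). Bhlhe41, another repressor, was below the filter at 34.4 to 49.8 with leptin and 8.84 to 30.8 with ad libitum feeding.

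Side by side with the groups that share these arrays, Arntl averaged 59.2 ± 11.7 with leptin, 98.1 ± 17.0 with calorie restriction, 188 ± 11.8 with ad libitum feeding and 119 ± 23.7 in wild type (SD, n = 5, 5, 4 and 4). The leptin arrays lay lower than wild type (log2 change -0.95, adjusted p = 0.0348) and lower than calorie restricted arrays (-0.68, adjusted p = 0.0029). Dbp averaged 556 ± 173 with leptin, 187 ± 53.2 with calorie restriction, 113 ± 17.6 with ad libitum feeding and 274 ± 90.6 in wild type. It was higher with leptin than with calorie restriction (1.54, adjusted p = 3.06e-04) and not called against wild type (1.01, adjusted p = 0.191). Per2 and Tef were not called between leptin and calorie restriction, at -0.05 for both (adjusted p = 0.839 for Per2 and 0.778 for Tef).

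**Figure D2:**
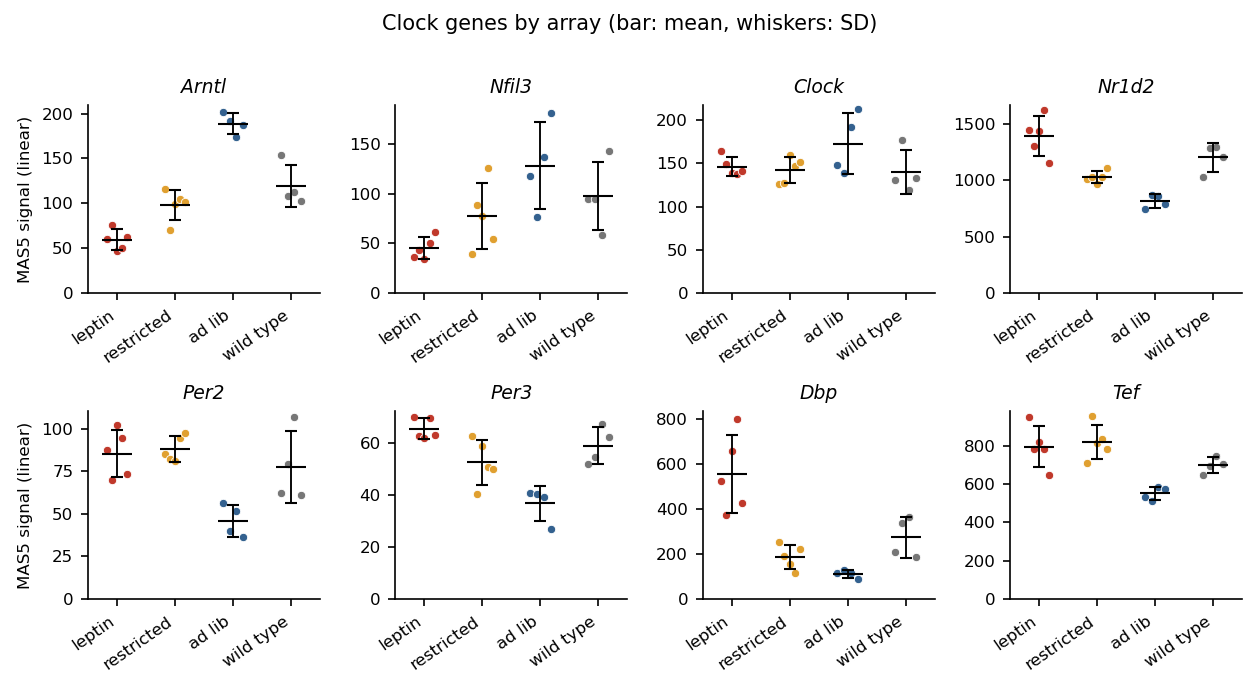
MAS5 signal (linear, arbitrary units) of 8 clock genes, 1 point per array, in leptin treated, calorie restricted and ad libitum ob/ob mice and wild type mice; bars are means and whiskers SDs. Leptin arrays lie below ad libitum arrays for Arntl and Nfil3 and above them for Nr1d2, Per2, Per3, Dbp and Tef, while Clock overlaps.

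Genes of growth signalling moved at a few points. In the insulin and IGF list 2 of 24 tested genes rose, where 0.632% of all genes did, and 0 fell (median 0.02). Among 19 regulators of mTORC1, the kinase complex that drives protein synthesis, 1 fell (median -0.003), where 0.412% of all genes did. The one that fell was Ddit4, which encodes REDD1, an inhibitor of mTORC1 induced by stress and glucocorticoids. It read 315, 453, 541, 617 and 810 with leptin, against 1994, 1829, 1151 and 1514 with ad libitum feeding. All leptin arrays lay below the lowest ad libitum array, and the log2 change was -1.60 ± 0.26 (adjusted p = 0.00576). Means of Ddit4 were 547 ± 185 with leptin, 1234 ± 462 with calorie restriction, 1622 ± 372 with ad libitum feeding and 737 ± 141 in wild type.

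Igf1r, the receptor of insulin-like growth factor 1, read 285, 346, 348, 285 and 317 with leptin, against 193, 224, 196 and 181 with ad libitum feeding. The groups were apart, with a log2 change of 0.66 ± 0.09 (adjusted p = 0.00282). Of 2 further probe sets of Igf1r, both of lower signal, 1 gave 0.48 and the other 0.17. Irs1, the adaptor that passes insulin and IGF signals on, read 636, 774, 483, 542 and 569 with leptin, against 317, 411, 419 and 422 with ad libitum feeding. It rose by 0.60 ± 0.13 (adjusted p = 0.0392), and lost the call without leptin replicate 1, 2 or 5 or any 1 of the ad libitum arrays (adjusted p of at most 0.107). Igfbp5, an IGF-binding protein, averaged 295 ± 37.9 with leptin and 463 ± 60.6 with ad libitum feeding and was not called (-0.64, adjusted p = 0.0918).

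Of 14 glucocorticoid responsive genes 1 rose and 1 fell, where 0.632% of all genes rose and 0.412% fell. Cdkn1a, the cell cycle inhibitor p21, read 313, 401, 279, 286 and 211 with leptin, against 577, 485, 495 and 551 with ad libitum feeding (-0.84 ± 0.19, adjusted p = 0.0423). Mt1, a metal-binding metallothionein, read 4769, 5217, 3924, 4299 and 3334 with leptin, against 2917, 2781, 3048 and 2749 with ad libitum feeding (0.57 ± 0.12, adjusted p = 0.0271). Neither gene's groups overlapped. Both calls rested on most of the arrays: Cdkn1a was lost without any 1 array other than leptin replicate 2 (adjusted p of at most 0.0945), and Mt1 without leptin replicate 1 or 2 or any 1 ad libitum array (at most 0.0804). Errfi1, a feedback inhibitor of the EGF receptor, was lower in all leptin arrays but not called (-0.40, adjusted p = 0.0748). The atrophy and autophagy list had 0 of 15 genes called, where 1.04% of all genes were. At an unadjusted p under 0.05 it had 5, where 15.2% of all genes were. Fbxo32, the ubiquitin ligase atrogin-1, had a log2 change of 0.44 (adjusted p = 0.184), Gabarapl1 of 0.51 (0.122) and Trim63, the ligase MuRF1, of -0.02 (0.945). Other probe sets of Fbxo32 gave 0.84 (adjusted p = 0.0559 in limma's fit of all probe sets) and 0.21 (0.61).

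In the leptin receptor signalling list 0 of 14 genes were called (median 0.10) and 2 reached an unadjusted p under 0.05, beside 1.04% called and 15.2% under 0.05 over all genes, so the counts do not set this list apart. Socs2, a suppressor of cytokine signalling, read 327, 427, 344, 444 and 505 with leptin, against 319, 308, 284 and 293 with ad libitum feeding, which did not overlap, and did not pass the test (0.42, adjusted p = 0.135). Stat5b had a log2 change of -0.23 (adjusted p = 0.243). Socs3, the feedback inhibitor that leptin induces in the hypothalamus, averaged 96.5 ± 19.3 with leptin and 85.7 ± 27.1 with ad libitum feeding (0.20, adjusted p = 0.691).

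For fuel use, single regulators rose while the lists of enzymes showed few or no calls. Ppargc1a, the coactivator PGC-1 alpha that drives mitochondrial and fatty acid oxidation genes, read 915, 1034, 866, 844 and 937 with leptin, against 564, 538, 607 and 561 with ad libitum feeding. The groups were far apart and the log2 change was 0.69 ± 0.11 (adjusted p = 0.00511). All 5 of its probe sets were higher with leptin, by 0.55 to 0.80. Its means were 919 ± 74.1 with leptin, 732 ± 102 with calorie restriction, 567 ± 28.6 with ad libitum feeding and 1288 ± 192 in wild type, and the leptin minus wild type change of -0.48 was not called (adjusted p = 0.138).

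The following lists, some with genes that PGC-1 alpha is known to act on, held no called gene. Of 72 oxidative phosphorylation genes, 0 were called and 0 reached an unadjusted p under 0.05, with a median of 0.02 and a range of -0.23 to 0.16. The 25 fatty acid oxidation genes likewise had 0 called and 0 under 0.05 (median 0.01, range -0.17 to 0.10), where 15.2% of all genes reached an unadjusted p under 0.05. Among 26 genes of glucose uptake and glycolysis, 0 were called and 0 reached 0.05. Of 76 mitochondrial ribosomal protein genes 0 were called and 6 reached 0.05. Over all genes 1.04% were called, so 0 called does not set any of these lists apart.

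G0s2, the inhibitor of the triacylglycerol lipase ATGL, read 640, 808, 780, 534 and 630 with leptin, against 449, 372, 390 and 431 with ad libitum feeding. It was the only 1 of 13 lipase genes called (0.71 ± 0.12, adjusted p = 0.00824), where 1.04% of all genes were, and its groups did not overlap. Its means were 678 ± 114 with leptin, 343 ± 46.3 with calorie restriction, 410 ± 35.8 with ad libitum feeding and 742 ± 49.9 in wild type. Pnpla2, which encodes ATGL, averaged 1590 ± 304 with leptin and 1436 ± 81.8 with ad libitum feeding (0.13, adjusted p = 0.676), and Lpl had a log2 change of 0.07 (0.828).

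Targets of PPAR alpha, the fatty acid sensing receptor, had 0 of 25 genes called (median 0.02), where 1.04% of all genes were. An unadjusted p under 0.05 on the higher side was reached by 4, where 8.12% of all genes did so. Angptl4, the inhibitor of lipoprotein lipase, read 312, 252, 270, 189 and 97.1 with leptin, against 112, 81.1, 126 and 112 with ad libitum feeding. Ucp3, a mitochondrial carrier, read 391, 253, 431, 332 and 170 with leptin, against 196, 158, 215 and 168 with ad libitum feeding. In both genes leptin replicate 5 lay within the ad libitum range and the other 4 leptin arrays lay above it. Angptl4 had a log2 change of 0.93 ± 0.29 (adjusted p = 0.124) and Ucp3 of 0.70 ± 0.21 (0.121). Without leptin replicate 5 both were called, Angptl4 at 1.20 (adjusted p = 0.0232) and Ucp3 at 0.90 (0.0189). The same array was the lowest leptin array for Pdk4, the kinase that shuts pyruvate dehydrogenase (1773, against 3587 to 4859 in the other leptin arrays), and for Acot1, an acyl-CoA thioesterase (49.8, against 132 to 279). Pdk4 had a log2 change of 0.28 and Acot1 of 0.29, with adjusted p-values of 0.579 and 0.732. In the same fit 15 of the 25 targets differed between leptin and calorie restriction, with a median of -0.42, where 17.9% of all genes did. Angptl4 averaged 224 ± 83.7 with leptin, 626 ± 140 with calorie restriction, 108 ± 19.0 with ad libitum feeding and 284 ± 114 in wild type. Ppara itself had a log2 change of 0.25 against ad libitum feeding (adjusted p = 0.478).

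Of 9 lipid droplet proteins 0 were called (median 0.14), where 1.04% of all genes were. Plin2, a coat protein of fat droplets, averaged 694 ± 87.5 with leptin and 529 ± 56.9 with ad libitum feeding (0.38, adjusted p = 0.139), and Plin5 had a log2 change of -0.09 (0.781). The fatty acid transporter Cd36 had -0.04 (0.882). Among 12 genes of fatty acid uptake and activation 1 rose and 1 fell, where 0.632% of all genes rose and 0.412% fell. Fabp5, a fatty acid binding protein, read 878, 882, 1050, 759 and 943 with leptin, against 680, 646, 588 and 616 with ad libitum feeding (0.50 ± 0.10, adjusted p = 0.0181). Acsl6, which joins fatty acids to coenzyme A, read 137, 155, 128, 124 and 111 with leptin, against 183, 208, 258 and 225 with ad libitum feeding (-0.71 ± 0.11, adjusted p = 0.00576). Neither pair of groups overlapped. Elovl5, an elongase of polyunsaturated fatty acids, rose by 0.35 ± 0.08 (adjusted p = 0.035). It was the only 1 of 14 synthesis and desaturation genes called, where 1.04% of all genes were. Thrsp, a lipogenic nuclear protein, missed the threshold (-0.61, adjusted p = 0.051). Slc25a33, which carries pyrimidine nucleotides into mitochondria, rose by 0.82 ± 0.17 (adjusted p = 0.0239), with 443, 426, 418, 279 and 219 in leptin arrays and 215, 174, 186 and 196 in ad libitum arrays. Fabp5 lost its call without ad libitum replicate 2, 3 or 4 (adjusted p of at most 0.0706), Elovl5 without leptin replicate 1, 2 or 5 or any 1 ad libitum array (at most 0.108) and Slc25a33 without leptin replicate 1 or 2 or ad libitum replicate 2, 3 or 4 (at most 0.0773). Txnip, an inhibitor of glucose uptake, had a log2 change of 0.41 (0.184) and was called at 0.54 without leptin replicate 5 (0.0472).

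**Figure D3:**
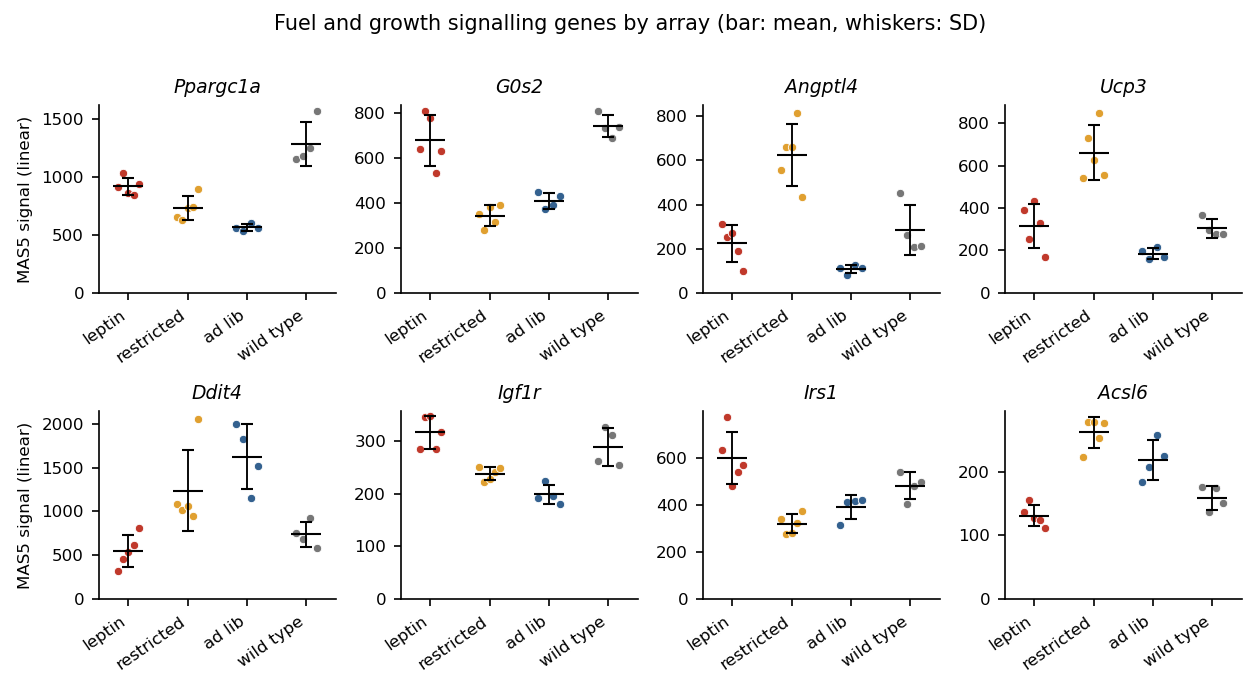
MAS5 signal (linear, arbitrary units) of 8 genes of fuel use and growth signalling, 1 point per array in the 4 groups, with means and SDs. Ppargc1a, G0s2, Igf1r and Irs1 are higher and Ddit4 and Acsl6 lower in every leptin array than in any ad libitum array, while 1 leptin array reaches down into the ad libitum range for Angptl4 and Ucp3.

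Genes of antigen presentation by MHC class II, the molecules with which macrophages, dendritic cells and B cells show peptides to helper T cells, had positive log2 changes in 5 of 6 tested genes. Of the 6, 2 rose, 4 reached an unadjusted p under 0.05 on the higher side and the median log2 change was 0.70. Over all genes 0.632% rose and 8.12% reached that p on the higher side. H2-Aa, the alpha chain of the I-A molecule, read 1077, 1152, 1078, 690 and 1139 with leptin, against 648, 325, 417 and 467 with ad libitum feeding. The lowest leptin array, replicate 4, was just above the highest ad libitum array. The log2 change was 1.16 ± 0.23 (adjusted p = 0.021). H2-Eb1, the beta chain of the I-E molecule, read 508, 496, 511, 320 and 587 with leptin, against 267, 218, 195 and 212 with ad libitum feeding (1.08 ± 0.21, adjusted p = 0.0173). Cd74, the invariant chain that guides class II molecules, averaged 663 ± 144 with leptin and 371 ± 72.9 with ad libitum feeding (0.82 ± 0.24, adjusted p = 0.103), and was called without leptin replicate 4 (0.97, adjusted p = 0.0469). H2-Aa lost its call without leptin replicate 2 or ad libitum replicate 2 or 3 (adjusted p of at most 0.0773), and H2-Eb1 without ad libitum replicate 2 or 3 (at most 0.063).

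The class II genes carry a conserved promoter block that ends in the Y box, an inverted CCAAT sequence bound by NF-Y. It is shown for the 2 genes that rose together, from RefSeq (GRCm38.p6; H2-Aa chr17:34287774-34288073, minus strand; H2-Eb1 chr17:34305617-34305916, plus strand), with the letters CTGATTGG in capitals and the same window as above.
H2-Aa: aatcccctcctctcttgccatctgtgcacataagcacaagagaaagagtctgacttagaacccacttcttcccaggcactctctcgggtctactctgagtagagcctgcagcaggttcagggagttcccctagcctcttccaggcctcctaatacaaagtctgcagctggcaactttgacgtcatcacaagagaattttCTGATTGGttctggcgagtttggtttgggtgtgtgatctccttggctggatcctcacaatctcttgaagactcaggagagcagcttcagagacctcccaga
H2-Eb1: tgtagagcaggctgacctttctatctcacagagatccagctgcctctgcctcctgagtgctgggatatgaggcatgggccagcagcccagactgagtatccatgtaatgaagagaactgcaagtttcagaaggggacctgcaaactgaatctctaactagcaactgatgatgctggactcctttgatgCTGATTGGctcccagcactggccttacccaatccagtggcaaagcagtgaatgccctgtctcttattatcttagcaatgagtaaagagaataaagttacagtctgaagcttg
Each window held 1 Y box on the gene's strand. The letters, searched on both strands, occurred in 4.097% of all windows. Counted by gene, with a match in any window, they occurred in 2 of 54 genes that rose and in 4 of 41 that fell, Arntl and Col5a3 among the latter.

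Class II levels spread widely over the 4 groups. H2-Aa averaged 1027 ± 191 with leptin, 118 ± 37.5 with calorie restriction, 464 ± 136 with ad libitum feeding and 970 ± 283 in wild type. H2-Aa was not called between leptin and wild type (0.10, adjusted p = 0.896), and its leptin arrays exceeded calorie restricted arrays by 3.09 on the log2 scale (adjusted p = 2.59e-07). In that comparison 5 of the 6 class II genes were called, where 17.9% of all genes were.

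Called genes of 2 other immune lists were also higher with leptin. Of 31 interferon responsive genes 2 rose, where 0.632% of all genes did, and the median was 0.15. An unadjusted p under 0.05 on the higher side was reached by 10, where 8.12% of all genes did so. Ifitm1, a membrane protein that hinders virus entry, read 149, 118, 105, 138 and 143 with leptin, against 37.9, 90.2, 49.2 and 44.6 with ad libitum feeding (1.22 ± 0.20, adjusted p = 0.00576). Rsad2, the antiviral enzyme viperin, read 400, 497, 453, 426 and 489 with leptin, against 283, 275, 343 and 330 with ad libitum feeding (0.55 ± 0.12, adjusted p = 0.0257). Both groups were apart without overlap. Rsad2 averaged 453 ± 41.0 with leptin, 156 ± 24.0 with calorie restriction, 308 ± 33.7 with ad libitum feeding and 435 ± 58.0 in wild type. Of 12 genes of class I loading and the immunoproteasome, 1 rose, where 0.632% of all genes did. It was H2-M3, a non-classical class I molecule that presents formylated peptides (0.51 ± 0.09, adjusted p = 0.013). Psmb10, an immunoproteasome subunit, was not called (0.45, adjusted p = 0.0756). Rsad2 lost its call without leptin replicate 2 or 5 or ad libitum replicate 1 or 2 (adjusted p of at most 0.0906), and H2-M3 without ad libitum replicate 3 (0.0527).

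Macrophage markers lay on the same side. Of 23 tested markers 1 rose, 22 had a positive log2 change, 10 reached an unadjusted p under 0.05 on the higher side and the median was 0.33. Over all genes 0.632% rose, 5364 of 10916 had a positive log2 change and 8.12% reached that p on the higher side. The summed signal of all 28 markers on the array was 6506 to 9026 in leptin arrays and 5521 to 6848 in ad libitum arrays, and the part this had in the class II and interferon values was not tested. Ms4a6d, a macrophage membrane protein, read 64.7, 58.1, 75.8, 57.9 and 62.8 with leptin, against 31.6, 34.4, 36.9 and 22.3 with ad libitum feeding (0.93 ± 0.19, adjusted p = 0.0202). Fgl2, a prothrombin-cleaving protein of immune and endothelial cells, rose by 0.95 ± 0.21 (adjusted p = 0.0317), with signals of 186 to 228 with leptin and 81.0 to 140 with ad libitum feeding. Serpina3n, a serine protease inhibitor of the acute phase response, rose by 1.54 ± 0.34 (adjusted p = 0.0347), with 382 in leptin replicate 1, 138 to 171 in the other leptin arrays and 25.9 to 94.3 with ad libitum feeding. Fcna, a ficolin that starts the lectin pathway of complement, went the other way, with 74.1, 61.0, 76.5, 64.0 and 74.7 with leptin, against 167, 104, 110 and 120 with ad libitum feeding (-0.78 ± 0.16, adjusted p = 0.021). Ms4a6d lost its call without ad libitum replicate 4 (0.0632) and Fcna without leptin replicate 2 or ad libitum replicate 1 (at most 0.0685). Fgl2 and Serpina3n both lost it without leptin replicate 1, 2 or 3 or ad libitum replicate 2, 3 or 4 (at most 0.121 for Fgl2 and 0.0873 for Serpina3n). Lymphocyte, dendritic cell and neutrophil markers were mostly below the filter. Each list had 2 tested genes and 0 called, where 1.04% of all genes were. The 6 red cell markers summed to 143 to 238 with leptin and 255 to 342 with ad libitum feeding.

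**Figure D4:**
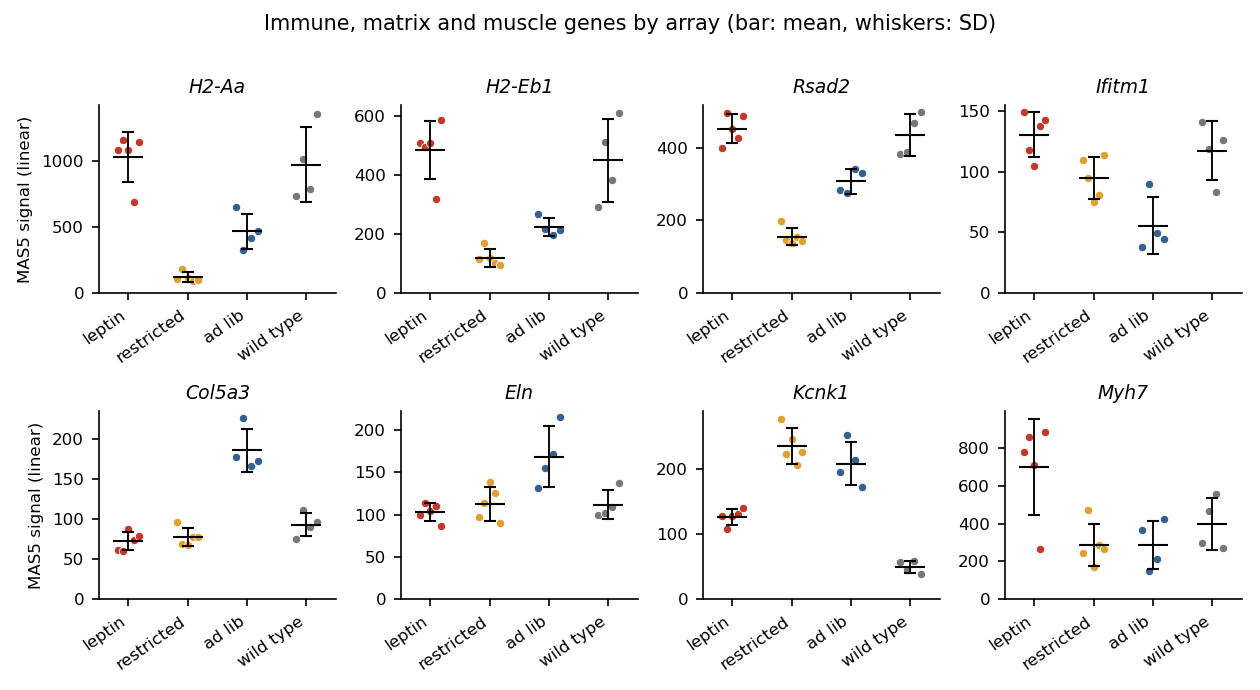
MAS5 signal (linear, arbitrary units) of 8 immune, matrix and muscle genes, 1 point per array in the 4 groups, with means and SDs. H2-Aa, H2-Eb1, Rsad2 and Ifitm1 are higher and Col5a3, Eln and Kcnk1 lower in every leptin array than in any ad libitum array; Myh7 overlaps through 1 low leptin array.

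In the matrix, single genes fell and the main collagens did not pass the test. Col5a3, a chain of the fibril-regulating collagen V, read 61.7, 60.4, 88.0, 74.2 and 78.4 with leptin, against 178, 226, 166 and 172 with ad libitum feeding. The groups were widely apart (-1.30 ± 0.13, adjusted p = 1.16e-04). With the mean of its probe sets, Col5a3 had -0.73 (adjusted p = 0.00909). Its means were 72.5 ± 11.6 with leptin, 77.4 ± 11.6 with calorie restriction, 186 ± 27.4 with ad libitum feeding and 93.0 ± 14.7 in wild type. It was the only 1 of 6 fibrillar collagens called, where 1.04% of all genes were, with a list median of 0.13. Col1a1 had a log2 change of 0.11 (adjusted p = 0.91) and Col3a1 of 0.14 (0.893), and both had overlapping groups. Eln, which encodes elastin, read 99.2, 114, 104, 110 and 86.7 with leptin, against 131, 156, 172 and 216 with ad libitum feeding (-0.67 ± 0.14, adjusted p = 0.0311). Ccn1, a matricellular protein and immediate early gene, fell by 0.50 ± 0.12 (adjusted p = 0.0467). Of 28 matricellular and remodelling genes these 2 fell and 0 rose, with a median of -0.02. Over all genes 0.412% fell. Eln lost its call without leptin replicate 1, 2 or 5 or ad libitum replicate 2, 3 or 4 (adjusted p of at most 0.0945), and Ccn1 without any 1 array other than leptin replicate 5 (at most 0.114).

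Of 22 endothelial markers 2 rose, where 0.632% of all genes did, 7 reached an unadjusted p under 0.05 on the higher side, where 8.12% of all genes did, and the median was 0.17. Their summed signal was 7237 to 8154 with leptin and 6250 to 7781 with ad libitum feeding, and its part in the single values was not tested. Tmem100, a target of BMP9 and ALK1 signalling in vessels, read 166, 187, 190, 203 and 174 with leptin, against 118, 121, 94.5 and 103 with ad libitum feeding (0.73 ± 0.12, adjusted p = 0.00576). Tek, the receptor of the angiopoietins, read 336, 330, 329, 291 and 312 with leptin, against 235, 244, 237 and 278 with ad libitum feeding (0.36 ± 0.08, adjusted p = 0.0484). Both were without overlap. Tek lost its call without leptin replicate 1, 2, 3 or 5 or ad libitum replicate 1, 2 or 3 (at most 0.141). Aplnr, the apelin receptor, lay just beyond the threshold, with 425, 614, 571, 429 and 504 with leptin, against 185, 198, 265 and 435 with ad libitum feeding (0.96 ± 0.23, adjusted p = 0.0505). It was called without leptin replicate 4 (1.02, adjusted p = 0.0486) and without ad libitum replicate 4 (1.22, 0.0128).

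Heart muscle genes gave calls among the potassium channels. Of 20 tested, 2 fell and 0 rose (median -0.02), where 0.412% of all genes fell. Kcnk1, a background potassium channel, read 127, 107, 127, 130 and 140 with leptin, against 196, 252, 213 and 173 with ad libitum feeding (-0.69 ± 0.13, adjusted p = 0.013). Its means were 126 ± 12.1 with leptin, 235 ± 27.2 with calorie restriction, 208 ± 33.2 with ad libitum feeding and 49.8 ± 9.37 in wild type, so the leptin arrays lay below ad libitum arrays and above wild type (1.27, adjusted p = 1.33e-04). Kcnk1 and Arntl were the 2 genes called between leptin and wild type. Kcna5, the voltage-gated potassium channel Kv1.5, fell by 0.62 ± 0.12 (adjusted p = 0.0161), with 221, 255, 224, 337 and 277 in leptin arrays and 405, 408, 421 and 371 in ad libitum arrays. Kcnk1 lost its call against ad libitum feeding without ad libitum replicate 2 (0.0554), and Kcna5 without ad libitum replicate 2 or 3 (at most 0.0586).

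Of 14 genes of cardiac load and fetal isoforms 0 were called, where 1.04% of all genes were. Myh7, the slow myosin heavy chain, read 781, 862, 711, 264 and 889 with leptin, against 366, 151, 215 and 424 with ad libitum feeding. Leptin replicate 4 lay inside the ad libitum range and the other 4 above it (1.26 ± 0.37, adjusted p = 0.112). Without that array Myh7 was called (1.58, adjusted p = 0.0227). Myh6, the fast chain, had a log2 change of 0.00 (0.993). Nppa, the atrial natriuretic peptide, averaged 1699 ± 492 with leptin and 860 ± 310 with ad libitum feeding, without overlap and not called (1.02 ± 0.45, adjusted p = 0.292), while Nppb had -0.38 (0.642). The 10 atrial markers on the array, Nppa among them, summed to 2427 to 3776 with leptin and 1330 to 3055 with ad libitum feeding. Since the sum holds Nppa, it is no separate measure of atrial tissue. The fit with an atrial marker covariate, built without Nppa, was run on all tested genes. How much of the Nppa value is atrial tissue was not measured. Of 23 tested calcium handling genes 0 were called (median -0.10), where 1.04% of all genes were. Cacng6, a calcium channel gamma subunit of the same list, was below the filter on low signal. It read 17.6 to 26.4 with leptin and 43.7 to 59.7 with ad libitum feeding, without overlap, and had a log2 change of -1.03 (adjusted p = 0.0136) in the fit without the filter. The platelet marker Clec1b, also below the filter, passed in that limma fit too (1.80, adjusted p = 0.0303). Its low signals overlapped, at 11.8 to 36.1 with leptin and 0.56 to 12.7 with ad libitum feeding.

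Cytosolic ribosomal protein genes were slightly higher with leptin as a list. Of 45 tested genes 40 had a positive log2 change, 25 reached an unadjusted p under 0.05 on the higher side and 1 on the lower, and the median was 0.21 beside -0.004 for all genes. Of all genes, 8.12% reached that p on the higher side and 7.08% on the lower. A single gene of the 45 passed the adjusted test, where 1.04% of all genes did. Rpsa, a protein of the small subunit, read 2384, 2666, 1968, 2300 and 2559 with leptin, against 1872, 1611, 1868 and 1581 with ad libitum feeding (0.45 ± 0.10, adjusted p = 0.0389). Rps4x (0.33, adjusted p = 0.0511) and Rps19 (0.37, 0.0726) followed it. Rpsa lost its call without leptin replicate 1, 2 or 5 or any 1 ad libitum array (at most 0.123), and Rps4x and Rps19 gained one without leptin replicate 3 (0.0137 and 0.0206).

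**Figure D5:**
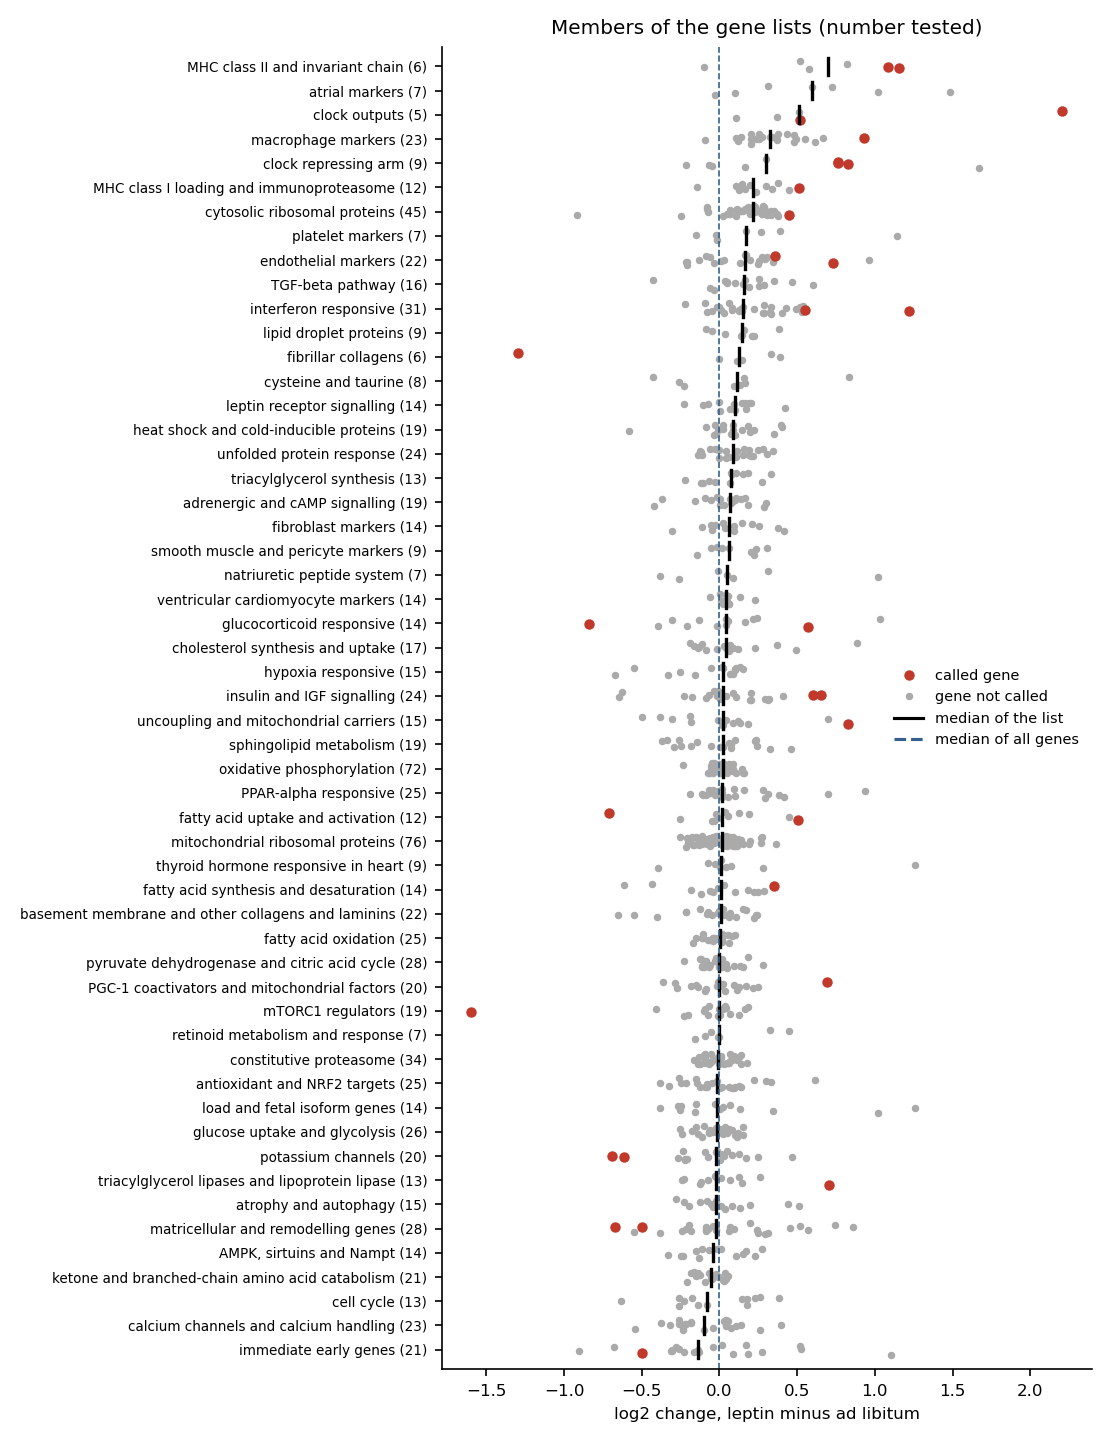
Log2 change (leptin minus ad libitum) of each tested member of the gene lists with at least 5 tested genes, lists sorted by their median (black bar); coloured points are called genes and the dashed line is the median of all genes, -0.004. The lists with the highest medians are class II (0.70), atrial markers (0.59), clock outputs (0.51), macrophage markers (0.33) and the clock repressing arm (0.30), and most lists of fuel enzymes lie close to the dashed line.

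Among called genes outside the lists, Tspan4, a tetraspanin of the cell membrane, had a wide separation. It read 262, 211, 202, 213 and 242 with leptin, against 118, 115, 108 and 83.3 with ad libitum feeding (1.06 ± 0.11, adjusted p = 1.53e-04). Its means were 226 ± 25.0 with leptin, 220 ± 19.4 with calorie restriction, 106 ± 15.9 with ad libitum feeding and 177 ± 22.1 in wild type. Upp1, which splits uridine into uracil and ribose phosphate, read 51.8, 42.5, 55.1, 43.0 and 89.3 with leptin, against 20.1, 11.6, 17.5 and 26.7 with ad libitum feeding (1.34 ± 0.22, adjusted p = 0.00576). Epha4, a receptor of ephrins, read 92.2, 97.6, 105, 122 and 129 with leptin, against 224, 246, 196 and 202 with ad libitum feeding (-0.96 ± 0.13, adjusted p = 0.0026). None of these groups overlapped, and the 3 genes were called with every array left out in turn. Tmem150c, a membrane protein, fell by 0.91 ± 0.16 (adjusted p = 0.00795) and was likewise called with every array left out, though not with the mean of its probe sets (-0.33, adjusted p = 0.515).

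Further members of the largest changes were less stable. Cys1, the cilium protein cystin, rose by 0.94 ± 0.17 (adjusted p = 0.0131) and lost the call without ad libitum replicate 2 (0.054). Nt5e, the enzyme CD73 that makes adenosine from AMP, fell by 0.68 ± 0.13 (adjusted p = 0.0161), with 63.7 to 94.5 in leptin arrays and 113 to 147 in ad libitum arrays, and lost it without ad libitum replicate 3 or 4 (at most 0.0515). Dixdc1, a protein of Wnt signalling, rose by 1.03 ± 0.24 (adjusted p = 0.0442) with overlapping groups, 75.5 to 155 with leptin and 38.4 to 81.3 with ad libitum feeding. Igsf1, an immunoglobulin superfamily protein, fell by 0.80 ± 0.18 (adjusted p = 0.0403), with 66.7 to 150 in leptin arrays and 154 to 187 in ad libitum arrays. Dixdc1 was called only without leptin replicate 5 or ad libitum replicate 2, with an adjusted p of at most 0.125 without the others, and Igsf1 only without leptin replicate 3 or 5 (at most 0.112).

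Of the 34 genes called with each array left out, several more were chosen for naming after their values were seen. Ahr, the receptor for aromatic pollutants and dietary indoles, averaged 150 ± 7.96 with leptin and 101 ± 12.7 with ad libitum feeding (0.55, adjusted p = 0.00576). St8sia4, which builds polysialic acid chains, averaged 202 ± 16.3 with leptin and 126 ± 9.86 with ad libitum feeding (0.65, 0.00282). Lpar6, a receptor for lysophosphatidic acid, averaged 301 ± 28.4 with leptin and 205 ± 4.23 with ad libitum feeding (0.54, 0.00824). With the mean of their probe sets, Ahr and St8sia4 were not called. The 3 genes had leptin minus wild type changes of -0.06 to 0.06, none of them called. Tubb5, a beta tubulin, rose by 0.56, Abcg2, an efflux pump, by 0.49, Cdkn1c, the cell cycle inhibitor p57, by 0.81 and Ccbe1, a protein of lymphatic vessel growth, by 0.71. With the mean of their probe sets, Tubb5 and Ccbe1 were not called. Of Ccbe1's 2 other probe sets, both of low signal, 1 gave 0.16 and 1 gave -0.06. Among genes that fell, Scube2, a secreted protein that helps release Hedgehog ligands, averaged 288 ± 38.2 with leptin and 435 ± 35.8 with ad libitum feeding (-0.59, adjusted p = 0.005). Nuak1, a kinase related to AMPK, averaged 288 ± 7.92 with leptin and 458 ± 69.9 with ad libitum feeding (-0.65, 0.013). Slc45a3, a membrane transporter, averaged 68.3 ± 5.47 with leptin and 110 ± 5.80 with ad libitum feeding (-0.65, 0.00406).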

How the data were processed

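Total RNA from ventricular myocardium was labelled with biotin and measured on Affymetrix mouse arrays, 1 array per sample. Per the submitters' processing notes, the deposited values are MAS5 signal intensities, 1 linear intensity per probe set. No source used here gives the MAS5 version or its settings, and detection calls were not analysed here. The mean intensity without the top and bottom 2% of sets was 100.0 on every array, a scaling that hides any difference in total RNA.

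Of 45101 probe sets, 64 were controls, 34945 had 1 gene symbol in the platform annotation, 932 had several and 9160 were not listed. Entrez identifiers of 34741 sets matched RefSeq (GRCm38.p6), and 0 symbols changed. Each of 18193 genes was represented by its set with the highest mean. Log2 values are of signal + 5.13 (the 20th percentile of all signals), which understates changes of low genes. Genes with a mean of these log2 values under 5.18, the 40th percentile of gene means, were left out. Differences were tested with limma 3.58.1 in R 4.3.3, in 1 model with a coefficient per group over 18 arrays, with two-sided tests, and called genes had a Benjamini-Hochberg adjusted p under 0.05. Errors of log2 changes are SEs, and those of signals are SDs. For arrays, the number of samples limits the precision. The fit was tested on simulated data.

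Named genes were the 12 called genes with the largest change in each direction (1 unnamed clone, a fall, was passed over), members of the 61 gene lists with the smallest p (up to 3 per list) and a fixed set. This rule gives 203 tested genes. Of these 81 are named, and the list members among them were picked with their values known. A further 11 genes outside the rule were named after their values were seen. The comparison, its groups and the lists were chosen with earlier results of these data known. Alternatives covered the pseudocount, the filter, quantile normalization, the arrays fitted, an atrial marker covariate, the mean over probe sets, a replicate block, an intensity trend and each array left out. Figures were drawn with matplotlib 3.10.9.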

Additional observations from a re-analysis of the deposited data

Results flagged for a closer look

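Among the genes named above, 184 groups of 4 or 5 arrays were checked for 1 array far from the others of its group, and 12 were marked. Chance marks about 1 in 20 groups. In the leptin group, replicate 4 stood low for H2-Aa (690, against 1077 to 1152 in the other leptin arrays) and for Myh7 (264, against 711 to 889). Replicate 5 stood high for Nppa (2551, against 1401 to 1694) and Upp1 (89.3, against 42.5 to 55.1) and low for Plin5 (1032, against 1372 to 1509). Replicate 1 stood high for Serpina3n (382, against 138 to 171) and replicate 3 for Stat5b (259, against 211 to 220).

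In the ad libitum group, replicate 1 stood low for Irs1 (317, against 411 to 422). Replicate 2 stood low for Nppb (1537, against 2578 to 2790) and high for Per1 (250.0, against 160 to 170). Replicate 3 stood low for Ccbe1 (54.0, against 87.9 to 92.0) and replicate 4 for Per3 (26.8, against 39.2 to 40.6).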

How the results depend on the processing

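The 114 called genes (69 higher with leptin, 45 lower) became 54 (33 and 21) with no filter on low signal, 199 (122 and 77) with the filter at the 60th percentile, 52 (35 and 17) in the fit of the 9 arrays alone, 69 (37 and 32) with the mean of all probe sets and 185 (118 and 67) with an intensity trend; the cause was not tested. Left out in turn, single arrays gave 48 to 147 called genes, 32 to 96 higher and 16 to 51 lower. The titles number the arrays within each group and name no pairs. Deviations of same-numbered arrays correlated at -0.11 to -0.20. A replicate block, fitted on the 9 arrays, called 0 genes (0 higher, 0 lower), with 1161 at limma's unadjusted p under 0.05. That fit spends a term on each block and leaves leptin replicate 5 alone in its block, so its count cannot show whether the numbers pair samples. A filter at the 40th percentile of probe sets, added after seeing the data, called 86. The genes called between leptin and wild type numbered 1 to 3 in the other settings and 7 with the 60th percentile filter. Of the 92 tested genes named above, 53 were called, of which 24 lost the call with the mean of all probe sets, 21 in the fit of the 9 arrays, 20 without the filter, 11 with the added filter and 4 with the atrial covariate, each keeping its direction; 83 of the 92 kept their direction in every setting, and those that turned were not called. The lowest and highest values with single arrays left out were -0.08 and 0.02 for Cd36, -0.10 and 0.02 for Cry2, -0.04 and 0.07 for Myh6, -0.03 and 0.35 for Nr1d1, -0.13 and 0.08 for Per1, -0.14 and 0.01 for Plin5, -0.04 and 0.33 for Socs3 and -0.09 and 0.04 for Trim63. Also turned were Myh6 under quantile normalization (-0.03), Col1a1 with the mean of all probe sets (-0.26), Cd36 (0.02), Cry2 (0.01), Plin5 (0.01) and Trim63 (0.04) under the replicate block. Genes below the filter, such as Npas2, have values from the fit without the filter alone.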
